A study of Mus musculus with 18 samples.

Results

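Taar6, Taar7a, Taar7b, Taar7d, Taar7e and Taar7f are receptor genes of the trace amine-associated receptor (TAAR) family of the mouse. They were chosen by gene symbol, as Taar6 and every Taar7 copy with a row in the table of expression values. They are 6 of the 15 Taar genes and 6 of the 23359 gene symbols in that table. RNA-seq measured expression in 18 libraries of sorted cells from the main olfactory epithelium (MOE), the part of the nose in which olfactory sensory neurons (OSNs) lie. The mice were C57BL/6 per the labels and of mixed C57BL/6J and 129 background per the paper. They carried Taar5-ires-Cre with L10-GFP, at postnatal day 11 to 14, or Taar6-ires-Cre with ZsGreen, at postnatal day 16 to 17. An older age range, in weeks, stands in the reporting summary of the paper for both lines. In each line Cre recombinase was placed behind the stop codon of the named receptor gene, so that a neuron that transcribes the gene switches on the green reporter. Cells were then separated by fluorescence into reporter-positive cells (Taar5+ or Taar6+) and reporter-negative cells (control), and the controls carry the same Cre and reporter alleles as the positive cells. The Taar5 line gave 7 Taar5+ libraries and 9 controls. The Taar6 line gave 1 library of each kind. The Taar values of control replicate 2 of the Taar5 line repeat those of control replicate 1, so 8 controls and 17 libraries were used for the 6 genes. This library also stood apart in its other values, with 5939 rows above 0, fewer than in any of the other 8 controls (11352 to 17015), and a summed odorant receptor TPM of 6174 against 13477 to 20251. It stayed in the fit of all other genes.

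TAARs are G protein-coupled receptors that detect amines. Like odorant receptors, they are expressed by OSNs, and a mature OSN transcribes mainly a single receptor gene. The MOE is divided into a dorsal and a ventral zone, and most TAARs are expressed in the dorsal zone. The study's introduction names Taar6, Taar7a and Taar7b as the TAAR genes of more ventral neurons. Its list of in situ hybridization probes places Taar7a and Taar7b in the ventral zone, Taar7e and Taar7f in the dorsal zone, and Taar6 and Taar7d in both.

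The 6 genes lie side by side on chromosome 10 (GRCm38, GENCODE M21), in the order Taar6, Taar7a, Taar7b, Taar7d, Taar7e and Taar7f. Each is protein coding and has its transcript in 1 exon. Taar6 (chr10:23984609-23985646) and Taar7a (chr10:23992405-23993481) are on the minus strand. Taar7b (chr10:23999939-24001015), Taar7d (chr10:24027222-24028298), Taar7e (chr10:24037614-24038690) and Taar7f (chr10:24049510-24050586) are on the plus strand. The pseudogene Taar7c-ps (chr10:24013470-24014524) lies between Taar7b and Taar7d and was not analysed here. The annotated models hold coding sequence only, and the coding length is 1038 bases for Taar6 and 1077 bases for each Taar7 gene. With these equal lengths, TPM (transcripts of a gene among 1000000 transcripts, corrected for its length) compares the Taar7 copies without an effect of length. The gene models behind the deposited TPM are not given in the sources used here. The paper's probes for single Taar7 copies lie behind the coding sequence, so transcripts can extend beyond the models used here.

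The Taar7 copies are close to identical in their coding sequence. All 5 copies have the same base at 937 of 1077 positions (87.0%). The closest pair was Taar7e and Taar7f, with 95.4% identical bases, and the most distant pair was Taar7a and Taar7f, with 91.7%. Taar6 was identical to the Taar7 copies at 67.8% to 68.6% of alignment positions, with gaps counted as differences. The longest stretch that all 5 copies share is 77 bases long and spans coding bases 688 to 764. It is printed to show a stretch in which a short read cannot be assigned to a single copy, with its position in Taar7e (chr10:24038301-24038377, GRCm38, plus strand).
all 5 Taar7 copies: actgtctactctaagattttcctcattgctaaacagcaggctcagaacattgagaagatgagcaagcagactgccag

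How many such stretches each gene has was counted over all 50-base words of its transcript. A word found in the transcript of another gene made up 53.9% of the words of Taar7e, 51.3% of Taar7f, 40.4% of Taar7b, 38.6% of Taar7a and 29.5% of Taar7d. For Taar6 it was 0.101%. Taar7e and Taar7f shared the most with each other, 43.1% of their words. The handling of reads that map to several genes is not given in the sources used here. A single value of a Taar7 copy is therefore uncertain, while few reads of Taar6 can be shared. In the control of the Taar6 line, Taar7d and Taar7f had the same value, 10.9 TPM, to the last digit in the table, while no other library had equal values above 0 for any pair of the 6 genes.

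The copies differ more ahead of the gene. The 250 bases before the annotated start (RefSeq, GRCm38.p6, found for 6 of 6 genes) were aligned, with gaps counted as differences. Taar7d shared 83.4% of alignment positions with Taar7e and 77.2% with Taar7f, and Taar7e shared 73.2% with Taar7f. Taar7b shared 52.9% to 55.7% with these 3 genes. Taar6 and Taar7a shared 42.5% to 48.3% with every other gene of the 6, including each other. The annotated start is the start codon, so these bases need not be the promoter. The windows of 150 bases before and 50 bases after the start are printed 5′ to 3′ on the strand of each gene, to show which of the neighbouring copies have a common upstream sequence. Capitals mark runs of at least 10 bases that align without a difference to Taar7d, and in Taar7d itself to Taar7e. The windows lie at chr10:23985597-23985796 (Taar6, minus strand), chr10:23993432-23993631 (Taar7a, minus strand), chr10:23999789-23999988 (Taar7b, plus strand), chr10:24027072-24027271 (Taar7d, plus strand), chr10:24037464-24037663 (Taar7e, plus strand) and chr10:24049360-24049559 (Taar7f, plus strand).
Taar6: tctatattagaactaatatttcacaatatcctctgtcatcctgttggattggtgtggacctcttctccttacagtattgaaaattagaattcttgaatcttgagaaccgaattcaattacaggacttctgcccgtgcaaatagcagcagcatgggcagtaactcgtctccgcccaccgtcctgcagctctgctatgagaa
Taar7a: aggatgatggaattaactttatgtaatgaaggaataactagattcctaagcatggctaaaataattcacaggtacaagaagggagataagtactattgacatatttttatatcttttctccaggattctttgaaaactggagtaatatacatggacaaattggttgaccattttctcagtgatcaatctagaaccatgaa
Taar7b: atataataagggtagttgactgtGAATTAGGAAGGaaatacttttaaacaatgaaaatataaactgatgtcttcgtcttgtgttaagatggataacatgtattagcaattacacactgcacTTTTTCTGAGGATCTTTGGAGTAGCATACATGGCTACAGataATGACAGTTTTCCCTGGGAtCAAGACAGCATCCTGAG
Taar7d: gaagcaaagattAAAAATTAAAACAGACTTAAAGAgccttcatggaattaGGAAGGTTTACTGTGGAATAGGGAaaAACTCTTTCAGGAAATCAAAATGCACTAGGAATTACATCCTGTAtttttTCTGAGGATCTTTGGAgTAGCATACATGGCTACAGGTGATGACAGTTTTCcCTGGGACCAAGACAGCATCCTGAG
Taar7e: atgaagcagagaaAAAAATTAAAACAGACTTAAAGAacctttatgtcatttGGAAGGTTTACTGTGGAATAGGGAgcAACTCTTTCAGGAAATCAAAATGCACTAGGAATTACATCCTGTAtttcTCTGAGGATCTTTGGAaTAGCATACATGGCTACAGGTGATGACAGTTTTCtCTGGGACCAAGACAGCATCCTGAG
Taar7f: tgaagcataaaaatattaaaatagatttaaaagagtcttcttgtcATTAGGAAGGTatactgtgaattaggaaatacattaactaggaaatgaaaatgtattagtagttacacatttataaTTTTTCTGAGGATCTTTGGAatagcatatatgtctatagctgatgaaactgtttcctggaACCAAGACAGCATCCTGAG

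Before the start, 115 of the 150 bases of Taar7e are in capitals, against 41 in Taar7b, 31 in Taar7f and 0 in Taar6 and Taar7a. In the coding sequence, the measures of likeness of Taar7a and Taar7b, the Taar7 copies named as more ventral, differ. By 50-base words each was the closest partner of the other, with 26.8% of words shared, and their longest identical run, 182 bases, was second only to that of Taar7e and Taar7f, 256 bases. Their overall identity, 93.1%, was the second lowest of the Taar7 pairs, and 4 of the 1077 positions set the 2 genes apart together from the other 3 copies. The same count was 11 for Taar7a with Taar7d and 9 for Taar7e with Taar7f.

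**Figure D1:**
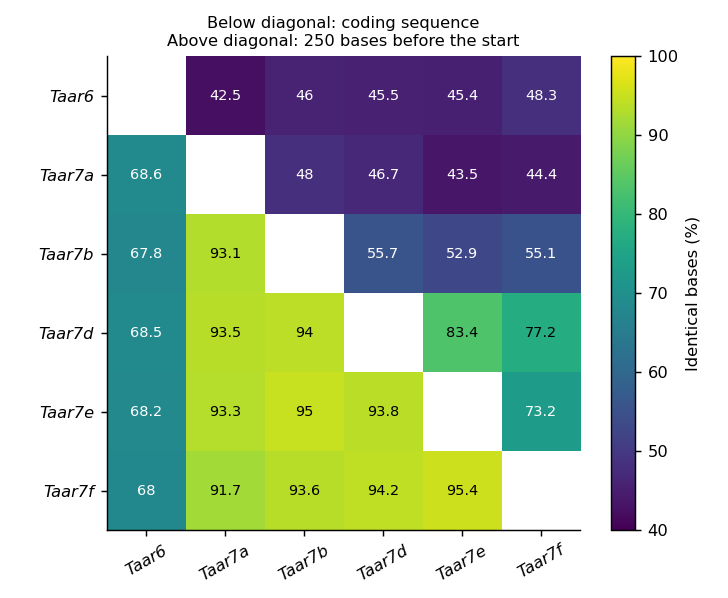
Identical bases in percent of alignment positions, gaps counted as differences, for each pair of the 6 genes. The coding sequence is below the diagonal and the 250 bases before the annotated start are above it. The Taar7 pairs lie between 91.7% and 95.4% in the coding sequence, while upstream only the 3 pairs of Taar7d, Taar7e and Taar7f reach 73.2% or more.

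The first comparison asked how much of each gene the sorted Taar5+ cells contained. Nothing in the labels says that the libraries of a group came from separate animals, so the spread and the p-values refer to these libraries, and the depth behind a TPM value is unknown. In bulk cells, a larger number of neurons that express a gene and more RNA per neuron cannot be told apart.

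Taar7e and Taar7f were the highest of the 6 genes in Taar5+ cells. Taar7f ranged from 101 to 679 TPM with a median of 554 (mean 499 ± 197, SD, n = 7), and Taar7e from 101 to 932 TPM with a median of 436 (mean 478 ± 254, SD, n = 7). This pair took the top 2 places in each of the 7 Taar5+ libraries. Taar7f was above Taar7e in 4 of them and below it in 3, so the 2 genes did not differ beyond the spread between libraries. Taar7d came next in mean level, from 85.9 to 559 TPM with a median of 311 (mean 273 ± 167, SD, n = 7), and lay below Taar7e in all 7 libraries by a median factor of 1.67. Taar7a ranged from 52.7 to 332 TPM with a median of 194 (mean 214 ± 98.5, SD, n = 7). It was below Taar7d in 5 of 7 libraries, so these neighbours in the order were not clearly separated.

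Taar6 and Taar7b were the lowest. Taar6 ranged from 36.5 to 107 TPM with a median of 80.1 (mean 75.5 ± 27.9, SD, n = 7). Taar7b ranged from 28.5 to 123 TPM with a median of 55.6 (mean 64.0 ± 38.2, SD, n = 7). Taar6 was above Taar7b in 4 of 7 libraries, so their order was not settled. Taar7a exceeded Taar6 in all 7, by a median factor of 2.36. Taar7b was among the lowest 2 genes in 7 and Taar6 in 6 of the 7 libraries. The exception was Taar5+ replicate 2, in which Taar7d (85.9 TPM) was below Taar6 (92.6 TPM).

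Taar5+ replicate 5 had the lowest value of Taar7a, Taar7b, Taar7e and Taar7f and the lowest sum of the 6 genes, 421 TPM, against 1335 to 2717 TPM in the other Taar5+ libraries. The summed TPM of odorant receptor genes was 5525 in this library and 225 to 1999 in the other 6, and it also had the highest sums of sustentacular (7698), horizontal basal (181) and microvillar (175) cell markers of its group. The part of these cells in the low values was not tested.

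In control cells the 6 genes had lower medians than in Taar5+ cells and varied widely between libraries. Taar6 ranged from 0 to 91.5 TPM with a median of 29.0 over the 8 controls and was listed at 0 in replicates 7 and 8. Taar7a ranged from 0.482 to 100.4 TPM with a median of 12.1, and its high values were in replicates 4 and 8 (100.4 and 89.1 TPM). Taar7b ranged from 4.18 to 62.0 TPM with a median of 14.9 and was above 0 in every control. Taar7b was also the steadiest in proportion, with an SD of 91.0% of its mean. Taar7d ranged from 0 to 77.4 TPM with a median of 15.7, Taar7e from 0.668 to 63.4 TPM with a median of 12.5, and Taar7f from 0 to 199.8 TPM with a median of 11.6. Control replicate 7 held the highest values of Taar7d, Taar7e and Taar7f while Taar6 was listed at 0 in it. In control replicate 8, Taar7a alone made up 94.8% of the summed TPM of the 6 genes. The highest of the 6 genes was Taar6 in 3 controls, Taar7a in 2, Taar7d in 2 and Taar7f in 1, so the controls had no common order.

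Markers of other cells also differed between the groups. The summed TPM of 4 progenitor markers had a median of 3.04 in Taar5+ libraries (0.628 to 88.7) and 51.4 in the 9 controls (0 to 91.5). For 3 horizontal basal cell markers the medians were 5.01 (0 to 181) and 98.0 (0 to 123), for 3 microvillar cell markers 5.73 (0.266 to 175) and 122 (12.6 to 608), and for 5 ensheathing glia markers 39.7 (18.4 to 172) and 105 (30.3 to 157). The medians were lower in Taar5+ cells for each of these 4 lists, with overlapping ranges. For 5 sustentacular markers they were 283 (68.3 to 7698) and 584 (46.2 to 9538). For 6 mature OSN markers they were 22573 (20322 to 26366) and 30417 (13632 to 46832). The mature OSN markers did not go 1 way. The mean TPM was higher in Taar5+ cells for Omp (14669 against 12131), Ric8b (1068 against 784) and Cngb1 (119 against 109). It was lower for Cnga2 (1453 against 1501) and Cnga4 (608 against 961). The part of these marker differences in the values of the 6 genes was not tested.

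**Figure D2:**
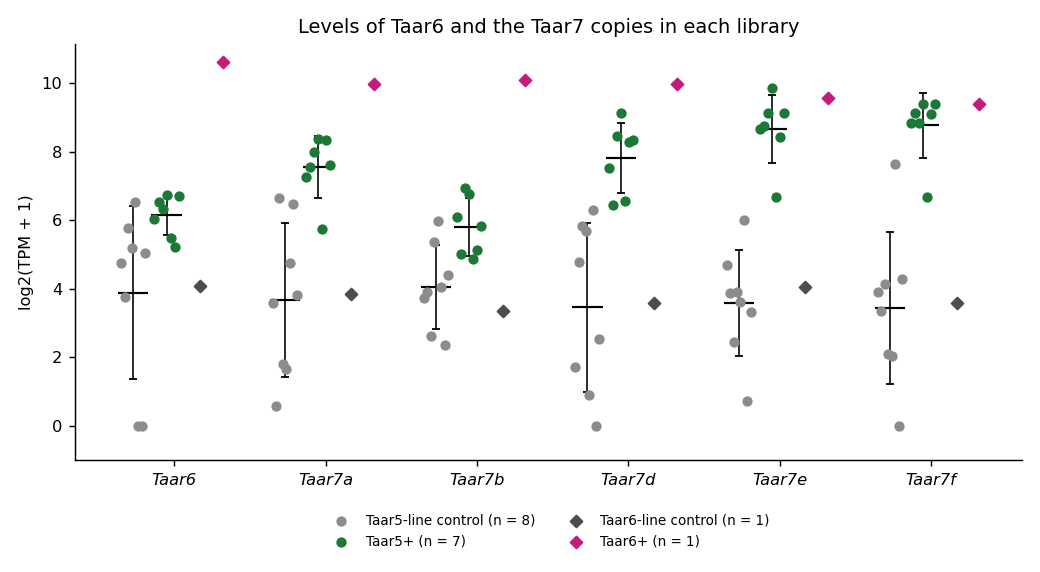
Level of each gene as log2(TPM + 1) in each library. Grey points are the 8 controls of the Taar5 line, green points the 7 Taar5+ libraries, with their mean and SD as bars, and diamonds are the single libraries of the Taar6 line. The Taar5+ points of Taar7d and Taar7e lie above every control, those of Taar6 and Taar7b overlap with the controls, and the Taar6+ diamonds are high for all 6 genes.

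Each gene was tested between Taar5+ cells and controls with limma on log2(TPM + 1), over 12502 genes with Benjamini-Hochberg adjustment. All 6 genes passed the filter on low values. They reached 1 TPM in 7 of 7 Taar5+ libraries and in 6 (Taar6 and Taar7d), 7 or 8 of the 8 controls. Taar6 and Taar7d thus needed Taar5+ libraries to pass the filter, so their place in the counts below is no support. Taar7e and Taar7f rose, 2 of the 6 genes, while 0.144% of all tested genes were called higher and 0.168% in either direction. Taar7e was 5.09 higher on the log2 scale (SE 0.62, limma adjusted p = 0.000312), and no control reached the lowest Taar5+ library. Taar7f was 5.34 higher (SE 0.80, limma adjusted p = 0.00394), although control replicate 7 (199.8 TPM) exceeded Taar5+ replicate 5 (101 TPM).

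The other 4 genes did not pass the threshold. Taar7d had a difference of 4.36 (SE 0.88, limma adjusted p = 0.0556) and its groups did not overlap. Taar7a had a difference of 3.89 (SE 0.81, limma adjusted p = 0.0674), with controls 4 and 8 above the lowest Taar5+ library. The differences were smaller for Taar6, 2.28 (SE 0.87, limma adjusted p = 0.487), and Taar7b, 1.75 (SE 0.54, limma adjusted p = 0.300), and for both genes the groups overlapped. Without adjustment, all 6 genes had p under 0.05 and a higher mean in Taar5+ cells, against 1.67% of all tested genes. The groups did not overlap for 2 of the 6, against 0.104% of all tested genes. In all these shares, genes outside the Taar family had 9 controls, with replicate 2 among them, and the Taar genes had 8. The median difference of the 6 genes was 4.12, and that of all tested genes was 0.02.

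The calls for Taar7a and Taar7d depended on single libraries. Without control replicate 2, whose own Taar values were not used, the genes called among all tested went from 21 to 148 and those among the 6 from 2 to 4. Taar7d passed without control replicate 2, 4, 5 or 7 or Taar5+ replicate 5 (limma adjusted p = 0.0178, 0.0287, 0.0378, 0.0246 and 0.0303). Taar7a passed without control replicate 2, 4 or 8 or Taar5+ replicate 5 (limma adjusted p = 0.0194, 0.0179, 0.0239 and 0.0236). Taar6 and Taar7b did not pass without any single library, with adjusted p from 0.271 to 0.759 and from 0.110 to 0.619 in limma.

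The rest of the family was set beside these genes. Of the 9 other Taar genes, Taar1 was listed at 0 and not tested, and the 8 tested genes rose. These 8 reached 1 TPM in all 7 Taar5+ libraries but in only 2 to 5 of the 8 controls, so they passed the filter only through the libraries in which they are high, and their count is no support. The 6 genes made up 24.2% to 43.8% of the summed Taar TPM in Taar5+ libraries, with a median of 28.0%, and 50.4% to 99.4% in the 8 controls, with a median of 77.6%. These ranges did not overlap. Thus the small amount of Taar RNA in the control cells of the Taar5 line was mostly RNA of these 6 genes, while in Taar5+ cells the other Taar genes made up most of it. The cells were sorted through Taar5, which counts in the summed Taar TPM, so this contrast was set in part by the design. Taar5 averaged 209 TPM in Taar5+ cells and 1.60 in controls, and Taar4 averaged 2058 and 4.62. Taar6 alone was 0.552% to 2.92% of the Taar TPM in Taar5+ libraries. In controls it was 0% to 41.0% with a median of 17.1%, and the 6 controls that listed it above 0 had 8.18% or more.

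**Figure D3:**
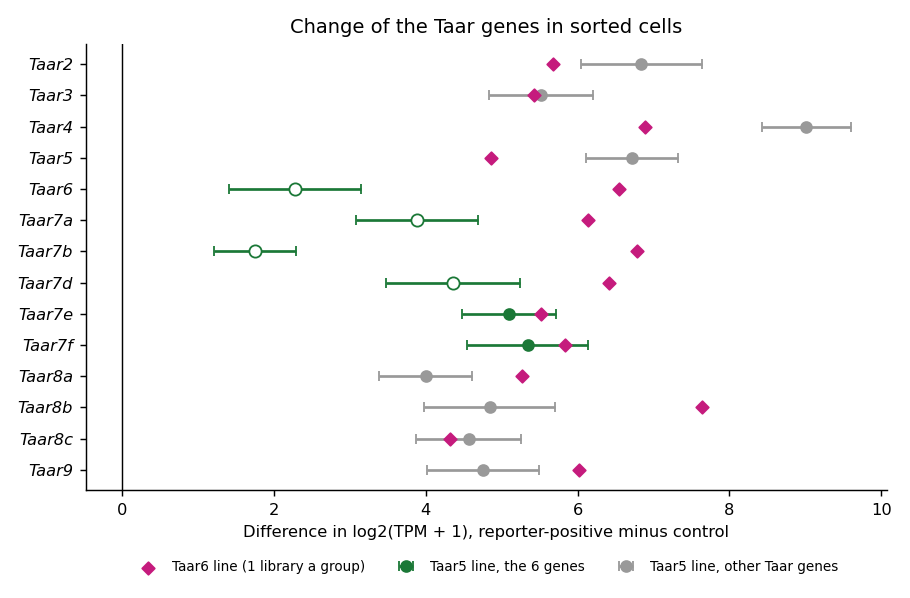
Difference in log2(TPM + 1) between reporter-positive cells and controls for each Taar gene tested, with circles and SE bars for the Taar5 line (7 against 8 libraries, filled where the limma adjusted p is under 0.05) and diamonds for the Taar6 line (1 against 1). In the Taar5 line, Taar6 and Taar7b have the smallest differences, 2.28 and 1.75, while in the Taar6 line they are at 6.55 and 6.78.

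The make-up of the 6 genes was compared next, as the summed TPM of Taar6, Taar7a and Taar7b against that of Taar7d, Taar7e and Taar7f. A ratio within a library does not scale with its amount of Taar RNA. Where a sum is low, however, a few TPM can change the ratio, as can 1 TPM added to each sum. In control replicate 8 the sum of Taar7d, Taar7e and Taar7f was 0.668 TPM. The ratio also depends on how shared reads were divided between the Taar7 copies. The Taar6, Taar7a and Taar7b sum was 18.4% to 29.8% of the 6 genes in Taar5+ libraries, with a median of 22.2%. In the controls it was 10.9% to 99.3%, with a median of 60.6%. The share was above the highest Taar5+ library in 7 of the 8 controls and below the lowest in 1, control replicate 7.

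The log2 ratio of the 2 sums, with 1 TPM added to each, averaged -1.75 with an SD of 0.30 over the 7 Taar5+ libraries and 0.97 with an SD of 2.65 over the 8 controls. The difference in means was -2.72 (exact two-sided permutation p = 0.00777 over 6435 splits). The difference was -2.74 with Taar7a and Taar7b set against Taar7e and Taar7f (exact permutation p = 0.00653). With Taar6 left out of the first sum it was -2.41 (exact permutation p = 0.00995). The controls spread far more than the Taar5+ libraries, so these p-values can reflect unequal spread as well as a shift in the mean. With libraries paired by replicate number, the difference was -1.90 over 6 pairs (exact sign-flip permutation p = 0.0938, and 0.0313 is the smallest possible). Taar5+ replicate 5, which had the lowest sum of the 6 genes, had the highest ratio of the Taar5+ libraries, -1.23, and the other 6 had -2.15 to -1.59.

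Taar6 was also set against the sum of all Taar7 copies. Few reads of Taar6 can be shared, and how reads were divided among the copies has little effect on their sum. Whether shared reads were counted at all does affect that sum, and it is not known. The ratio of Taar6 to the summed Taar7 copies was 0.0233 to 0.117 in Taar5+ libraries, with a median of 0.0514. In controls it was 0 to 1.15 with a median of 0.310, and the 6 controls in which Taar6 was above 0 had 0.194 or more. Apart from the controls at 0, the groups did not overlap.

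**Figure D4:**
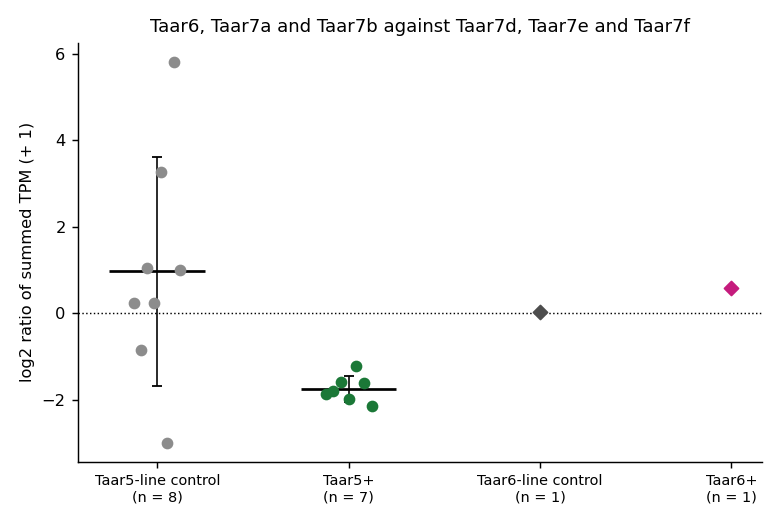
The log2 ratio of the summed TPM of Taar6, Taar7a and Taar7b to that of Taar7d, Taar7e and Taar7f, with 1 TPM added to each sum, by library. Bars are the mean and SD, and the dotted line marks equal sums. The Taar5+ libraries sit between -2.15 and -1.23, and 7 of 8 controls and both libraries of the Taar6 line lie above them.

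The Taar6 line gave another pattern. It has 1 library for each kind of cell, so its values are given with no test, and line, reporter and age cannot be told apart in a comparison with the Taar5 line. In Taar6+ cells, Taar6, the gene that drives Cre in this line, was the highest of the 6 with 1576 TPM, followed by Taar7b (1109), Taar7d (1012), Taar7a (1006), Taar7e (759) and Taar7f (676). The control of this line had 15.8 TPM of Taar6, 9.12 of Taar7b, 10.9 of Taar7d, 13.3 of Taar7a, 15.6 of Taar7e and 10.9 of Taar7f. The level in Taar6+ cells was 122 times that of the control for Taar7b, 99.6 times for Taar6, 92.8 for Taar7d, 75.4 for Taar7a, 62.0 for Taar7f and 48.8 for Taar7e. On the log2(TPM + 1) scale all 6 differences were at least 2, against 0.784% of all tested genes, and their median was 6.27. The cells were sorted through Taar6, so its own difference was set by the design. The other Taar genes, except Taar1 at 0, differed by 4.32 (Taar8c) to 7.64 (Taar8b), so the higher level is not particular to the 6 genes.

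The order in Taar6+ cells was nearly that of Taar5+ cells reversed. Taar7f and Taar7e, the top 2 genes of each Taar5+ library, were the lowest 2 in Taar6+ cells. Taar6 and Taar7b, at the bottom in the Taar5 line, were the highest 2. The 6 genes made up 62.0% of the Taar TPM in Taar6+ cells and 56.5% in their control, against at most 43.8% in a Taar5+ library. Taar6, Taar7a and Taar7b together were 60.1% of the 6 genes in Taar6+ cells and 50.6% in the control, and the log2 ratio was 0.59 and 0.03. The ratio of Taar6 to the Taar7 copies was 0.345 and 0.264. The ratios in Taar6+ cells were above those of all 7 Taar5+ libraries. The cells were sorted through Taar6, which counts in both ratios and both shares. These values and the top place of Taar6 were therefore set in part by the design. Without Taar6, Taar7a (1006 TPM) and Taar7b (1109 TPM) together were below the 2447 TPM of Taar7d, Taar7e and Taar7f in Taar6+ cells.

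**Figure D5:**
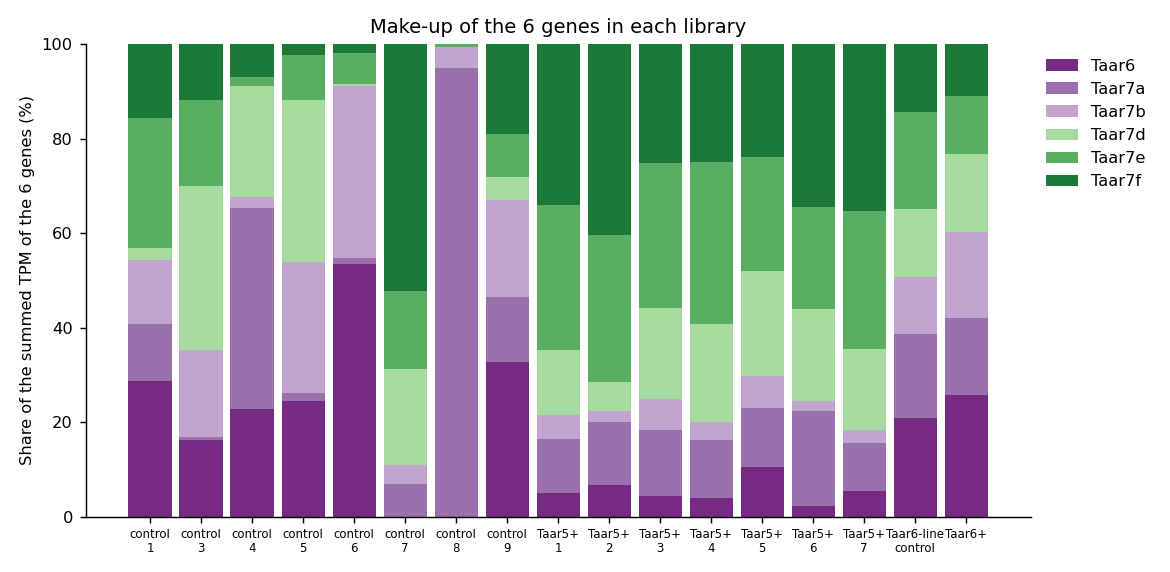
Share of each gene in the summed TPM of the 6 genes, in percent, with a bar for each of the 17 libraries and purple for Taar6, Taar7a and Taar7b. Purple takes 18.4% to 29.8% of each Taar5+ bar and 60.1% of the Taar6+ bar, and 10.9% to 99.3% in controls of the Taar5 line.

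Genes of the zones were placed beside these ratios. Nfia, Nfib and Nfix encode nuclear factor I transcription factors of ventral OSNs, and Ncam2 encodes a cell adhesion molecule of the ventral zone. In Taar5+ cells 0 of these 4 genes passed the threshold, against 0.168% of all 12502 tested genes. An unadjusted p under 0.05 was found for 3 of the 4, against 881 of all tested genes. Their differences were -2.56 for Nfix (limma adjusted p = 0.0728), -1.77 for Nfib (0.304), -1.30 for Nfia (0.418) and 0.0025 for Ncam2 (0.999). Of the dorsal zone markers, Nqo1, which encodes a quinone reductase, fell by 2.48 (limma adjusted p = 0.000312) and Acsm4, which encodes an acyl-CoA synthetase, rose by 1.53 (limma adjusted p = 0.00994). In Taar6+ cells and their control, Nfix was at 39.3 and 49.8 TPM, Nfib at 22.9 and 35.4, Nfia at 4.18 and 12.05, and Ncam2 at 136 and 105. Nqo1 was at 440 and 1226 TPM there and Acsm4 at 582 and 362. The 2 dorsal markers thus went in opposite directions in both lines, and whether the ratio of the 6 genes follows the zone of the sorted cells was not tested.

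A list of 11 genes of the OSN response was examined as the machinery that these receptors would use. It held the G protein subunits Gnal and Gng13, the chaperone Ric8b, the cyclase Adcy3, the channel genes Cnga2, Cnga4, Cngb1 and Ano2, the receptor transporters Rtp1 and Rtp2, and Omp, the marker of mature OSNs. In Taar5+ cells 0 of 11 passed the threshold in limma and 0 had an unadjusted p under 0.05, with a median difference of 0.22. Of all 12502 tested genes, 0.168% passed and 881 had an unadjusted p under 0.05. A count of 0 among 11 is close to these shares, so it is no result about the list. Omp was at 8597 to 18195 TPM in Taar5+ libraries, 3908 to 20070 in the 9 controls, and 12534 and 12514 in Taar6+ cells and their control. These ranges overlapped.

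Finally, the genes with a pattern most like that of Taar6 and of the summed Taar7 copies were listed, by the Pearson correlation of log2(TPM + 1) over the 17 libraries, among 12488 tested genes outside the Taar family. The libraries share their groups, so the values are a description, and the order rests in part on the single Taar6+ library. The sum of the Taar7 copies was most like Psmd14 (0.89), which encodes a proteasome subunit, Tbr1 (0.88), a T-box transcription factor, Stmnd1 (0.82), Ppa1 (0.81), an inorganic pyrophosphatase, and Fxyd2 (0.81), which encodes a regulator of the sodium pump. Without the Taar6+ library the values of these genes were 0.96 for Ppa1, 0.90 for Psmd14, 0.89 for Stmnd1, 0.87 for Tbr1 and 0.85 for Fxyd2. Psmd14 had 260 to 1171 TPM in Taar5+ libraries and 138 to 299 TPM in controls, and Ppa1 had 1538 to 7617 and 734 to 1131 TPM. The 5 genes most like Taar6 were others, namely Cabp4 (0.83), Lrrc34 (0.82), Pla2g16 (0.81), Lpgat1 (0.80) and Coro6 (0.80). Without the Taar6+ library Lrrc34 (0.92) was ahead of Cabp4 (0.84). These genes were low, and their ranges in Taar5+ libraries and controls overlapped, as for Cabp4 with 12.2 to 39.5 and 5.23 to 25.7 TPM. Within the family, Taar6 was most like Taar7b (0.78) and least like Taar7a (0.40). The Taar7 sum was most like Taar8a (0.90).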

How the data were processed

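Per the paper's methods and the submitters' processing notes, the authors made Smart-seq2 libraries, trimmed reads with Trimmomatic 0.36, mapped them to mm10 (GRCm38) with HISAT2 2.1.0 and quantified genes with Cufflinks 2.2.1. The notes also name DESeq2. The deposited values are TPM, and how they were derived is not given in the sources used here. TPM keep no depth, so no counting error can be given. The 488 rows that repeat 1 of 256 symbols were summed with it. In control replicate 2 of the Taar5 line, 13 of 13 Taar values above 0 equal those of replicate 1 and 0 other values do, so these values were left out.

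The 12502 genes that reached 1 TPM in 7 or more of the 16 libraries were fitted with limma 3.58.1 (R 4.3.3, lmFit and eBayes with a trend) on log2(TPM + 1), with an adjusted p under 0.05 as the threshold. Because of the added 1 TPM, differences of low genes come out too small. Tested on simulated data of the 12502 genes, this fit recovered 38 of 100 genes changed by 2 on the log2 scale and 89 of 100 changed by 4, with 12 false calls. The simulated noise was normal and independent, with the same SD in both groups, no outlying library and no missing values. These figures therefore need not hold for the real libraries. Ratios were compared with exact permutation tests (Python 3.11.15, numpy 2.4.6, scipy 1.17.1). Sequences were aligned with biopython 1.88. The 6 genes, the lists and the rule for named genes (all 6, counts of the other Taar genes, fixed pathway, zone and cell type marker lists, and the 5 genes with the highest correlation) were chosen with earlier results of these data known. Alternatives tried were a pseudocount of 0.1, no filter or a stricter filter, quantile normalization, no trend, array weights, a replicate block, the copied values kept, 10 controls, other genes in the ratio and each library left out.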

Additional observations from a re-analysis of the deposited data

Results flagged for a closer look

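In 4 of the 18 groups of library values examined, a single library lay far from the rest of its group by Dixon's criterion, where chance would give about 1 in 20 groups, or 0.9 of 18. Control replicate 7 had 63.4 TPM of Taar7e, against 0.668 to 24.9 in the other controls, and 200 TPM of Taar7f, against 0 to 18.5. Taar5+ replicate 5 had 101 TPM of Taar7f, against 455 to 679 in the other Taar5+ libraries. Taar7e and Taar7f share 43.1% of their 50-base words, and whether shared reads link the pair of values in control replicate 7 was not tested. In Taar5+ replicate 4 the 6 genes made up 43.8% of the summed Taar TPM, against 24.2% to 31.8% in the other Taar5+ libraries. The causes were not tested.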

How the results depend on the processing

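In limma, Taar7e and Taar7f passed the threshold in all 26 alternatives (adjusted p up to 0.0253 and 0.0424). Taar7a passed in 9 and Taar7d in 10 of the 26, and Taar6 and Taar7b in 1 each, with array weights (adjusted p = 0.0154 and 0.00377), over ranges of adjusted p up to 0.917 and 0.619. No difference changed sign. Of the 6 genes, 2 passed as reported, 4 with quantile normalization, with the copied values kept and with 10 controls, and 6 with array weights. Of the other Taar genes, 8 of 8 tested passed as reported, and with at least 1 TPM in 12 libraries the filter removed 4 of them and the 4 tested passed. Over all genes, 21 passed as reported, 109 with quantile normalization and 1329 with array weights. With control replicate 2 and Taar5+ replicate 5 both left out, an alternative chosen after seeing the data, 4 of the 6 genes and 401 of all genes passed. Leaving out each library gave 2 to 4 of the 6 genes, 7 to 8 of the other Taar genes and 16 to 148 of all genes (148 without control replicate 2, 64 without Taar5+ replicate 5), and a difference in log2 ratio of -3.28 to -2.02 (without control replicates 7 and 8). The causes were not tested.

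Whether same-numbered libraries of the Taar5 line belong together is not known. Such libraries had correlations of -0.006 to 0.275, 5 of 7 over 0.1, and 3 of 7 correlated best with their own number. These values do not settle the question. With the number as a replicate block, 2 of the 6 genes, 4 of the other Taar genes and 12 of all genes passed. The paired difference in log2 ratio was -1.90 over 6 pairs (exact sign-flip permutation p = 0.0938, and 0.0313 is the smallest possible). Depth is unknown, so values of 0 and a few TPM carry no stated precision, and with 1 library a group the Taar6 line has no check.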
